A study of Mus musculus with 2 samples.

Results

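The genes described here are 48 mouse genes that earlier work reported as targets of miR-122, leaving out those that also belong to inflammatory gene lists. They were chosen by symbol from a list of reported targets, and no value of these arrays entered the choice, although results of these data were known when the list was drawn up. They make up 48 of the 20659 gene symbols that the probes of the array could be matched to. All 48 genes had a probe, 66 probes in all, and for 44 of the genes the scanner software flagged the signal as well above background on the 2 arrays alike.

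The samples were RAW246.1 cells, which the labels call macrophages, grown in DMEM. One culture was labelled PBS, the mock treatment, and the other was labelled miR-122, for synthetic miR-122 at a stated dose of 5 μg/mL. Total RNA of each culture was labelled with Cy3, a green fluorescent dye, and hybridised to 1 Agilent mouse array of 1 colour. The design text names the question as how hepatic miR-122 acts on the inflammatory activation of alveolar macrophages. These arrays hold neither alveolar macrophages nor microRNA from liver, and the time of exposure and any carrier for the microRNA are not given in the sources used here. The labels conflict: both samples carry an identical treatment text, and the title of the sample labelled miR-122 says that the cells went without it. Groups here follow the source name and the description, so "the miR-122 array" means the array labelled miR-122. No probe for miR-122 was used, so uptake of the microRNA is unknown.

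With a single array in each group, differences have no replicate check and no p-value. The probes numbered 39427 after control spots and spots flagged as outliers were left out, of which the PBS array detected 71.8% and the miR-122 array 69.9% well above background. No spot was saturated. The arrays come from 1 scan of a slide, and the position on the slide cannot be told apart from the treatment. Each array reads the RNA of a whole culture, so fewer cells that express a gene and less of its RNA per cell cannot be told apart. Of 10 macrophage markers, 8 were well above background on both arrays. The other two were Mertk, which was not well above background, and Cd68, for which no probe was matched. Of 10 hepatocyte markers, the PBS array detected 8 and the miR-122 array 7. Their summed linear level, relative to the 75th percentile, was 19.6 and 21.9, most of it from Apoa2, while the defining hepatocyte genes Alb and Apoa1 were not well above background on either array. Of 5 fibroblast markers, the PBS array detected 3 and the miR-122 array 4. Of 5 T cell markers they detected 3 and 2, and of 4 B cell markers 3 and 3. In that order, the summed levels were 0.21 and 0.29, 2.45 and 2.41, and 0.18 and 0.24. Those of the macrophage markers were 210 and 171. A count of detected markers alone does not establish the cell type. Whether other cell types had a part in any result was not tested.

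A microRNA guides an Argonaute protein to messenger RNAs that pair with its seed, a short stretch near its 5′ end, usually at sites in the 3′ untranslated region. Pairing lowers translation and often lowers the level of the messenger RNA through deadenylation and decay, so a target can be lower in amount where the microRNA is present. miR-122 is abundant in hepatocytes, and most of its reported targets come from liver or hepatoma cells. Blocking miR-122 in mouse liver is known to raise the messenger RNAs of Aldoa, Gys1, Ndrg3 and Slc7a1, among others. Target sites in 3′ untranslated regions were not examined here.

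A level below is the log2 processed signal of a probe minus the 75th percentile of its array, and a difference is the level on the miR-122 array minus that on the PBS array. Unscaled signals are given where stated. The 75th percentile itself was lower by 0.28 log2 units on the miR-122 array (a shift of -0.28), so a probe with equal unscaled signals on both arrays has a positive difference. A gene with several probes is summarised by its brightest probe. The scanner software gives each signal an error, and for a difference these errors combined to a median of 0.20 over the 44 genes, with a range from 0.20 to 0.38. The error lay near its lowest value for many genes, with a median of 0.21 and a lowest of 0.20 over all named genes. For them, a bound of 2 times the error is close to a fixed cutoff. The spread between spots of 1 probe describes precision within an array. The error and the spread between spots both leave out the spread between cultures.

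The reported targets differed little between the arrays. Of the 44 genes, 23 had negative and 21 positive differences, and the median difference was -0.02. Over all 15022 named genes detected on each array, 39.7% of the differences were negative and the median was 0.09. Among the targets 1 was at least 2-fold higher, the nucleotidase gene Nt5c3a, and 0 were at least 2-fold lower. For comparison, 4.57% of all genes passed 2-fold upward and 1.78% downward. At 1.5-fold the counts of targets were again 1 higher and 0 lower, beside 12.1% and 5.99% of all genes. The differences of 43 of the 44 targets, 97.7%, lay within 1.5-fold, as did 82% of those of all genes. The middle range of the targets, from the 25th to the 75th percentile, ran from -0.18 to 0.19, and that of all genes from -0.16 to 0.34. The targets leave out genes of inflammatory lists, while all named genes include them, so the 2 sets are not alike in make-up. What part this has in the lower shares of targets was not tested. With 44 genes and 1 array per group, these values describe the targets on these arrays and are not a test.

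**Figure D1:**
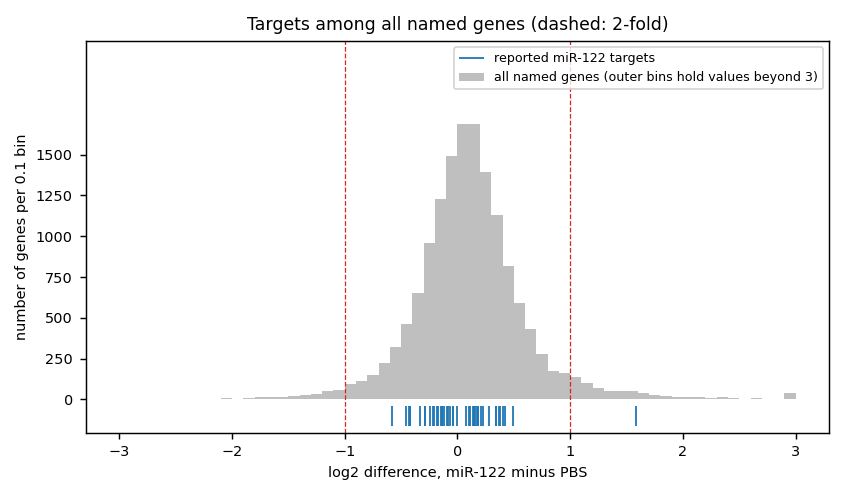
Number of named genes (grey bars, vertical axis) by log2 difference, miR-122 minus PBS (horizontal axis), with a blue tick below for each of the 44 reported miR-122 targets; dashed lines mark 2-fold. All ticks but that of Nt5c3a lie between -0.58 and 0.49, inside the bulk of the 15022 genes.

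**Figure D2:**
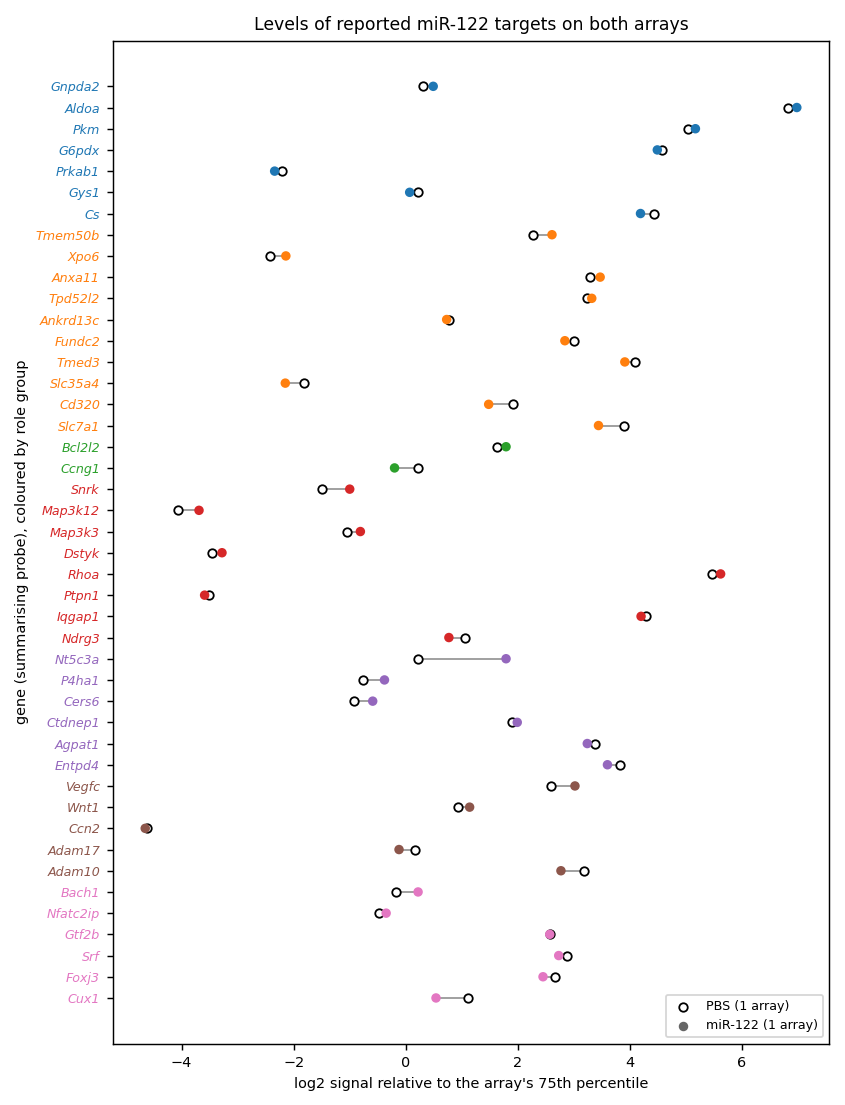
Level of each of the 44 genes, as log2 signal relative to the 75th percentile of the array, on the PBS array (open circles) and the miR-122 array (filled circles), coloured by role group; each circle is 1 array. The pairs lie close together except for Nt5c3a, at 0.21 and 1.79.

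Here 12 genes were taken as marks of miR-122 activity, a list drawn up with earlier results of these data known. They were split. Of these, 11 were well above background on both arrays, 7 with negative and 4 with positive differences, a median of -0.24 and none past 1.5-fold. The negative share was 63.6%, beside 39.7% of all named genes, whose median was 0.09. Under median scaling all of the 11 but P4ha1 were negative, where 59.7% of all named genes were negative too. Slc7a1, the cationic amino acid transporter whose messenger RNA is a textbook miR-122 target in human liver cells, had unscaled signals of 6269 with PBS and 3767 with miR-122. Its levels were 3.90 and 3.44, a difference of -0.46 or 1.37-fold lower. Ccng1, which encodes cyclin G1, a target of p53, had levels of 0.21 and -0.20, 1.34-fold lower. The metalloprotease gene Adam10, whose product sheds cell surface proteins, had levels of 3.19 and 2.77, also 1.34-fold lower. These 3 differences exceeded 2 times the software error.

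As scaled here, the other lower genes of this set differed by less than 2 times that error. Ndrg3, of the N-myc downstream regulated family, had levels of 1.06 and 0.77. Adam17, the protease gene for shedding of tumour necrosis factor, had 2 probes with differences of -0.24 and -0.29. Cs, which encodes citrate synthase, had levels of 4.43 and 4.19. For Gys1, muscle glycogen synthase, the 2 probes differed by -0.15 and -0.26. Every probe of these genes was lower on the miR-122 array, by small amounts.

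The 4 genes of the set with positive differences were Aldoa, Pkm, Bcl2l2 and P4ha1. Aldoa, which encodes the glycolytic enzyme aldolase A and is the usual readout of miR-122 activity in mouse liver, had unscaled signals of 47787 with PBS and 43747 with miR-122. Its levels were 6.83 and 6.98, a difference of 0.15, whose sign turned under 4 alternatives, to as low as -0.06 with the authors' values. Pkm, pyruvate kinase, had levels of 5.03 and 5.17, and its difference of 0.14 turned to -0.07 with quantile normalization. The survival gene Bcl2l2 had levels of 1.63 and 1.79, and its 2 probes differed by 0.17 and 0.20, with -0.01 under median scaling. P4ha1, a subunit of the collagen prolyl hydroxylase, had levels of -0.76 and -0.38, and its 2 probes differed by 0.38 and 0.20. P4ha1 was the member of the 4 whose difference stayed positive under every setting tried. Aldoa, Pkm and Rhoa have processed copies in the genome, whose transcripts a probe may share. The gene for the growth factor receptor Igf1r was not well above background on either array, so it has no difference here.

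**Figure D3:**
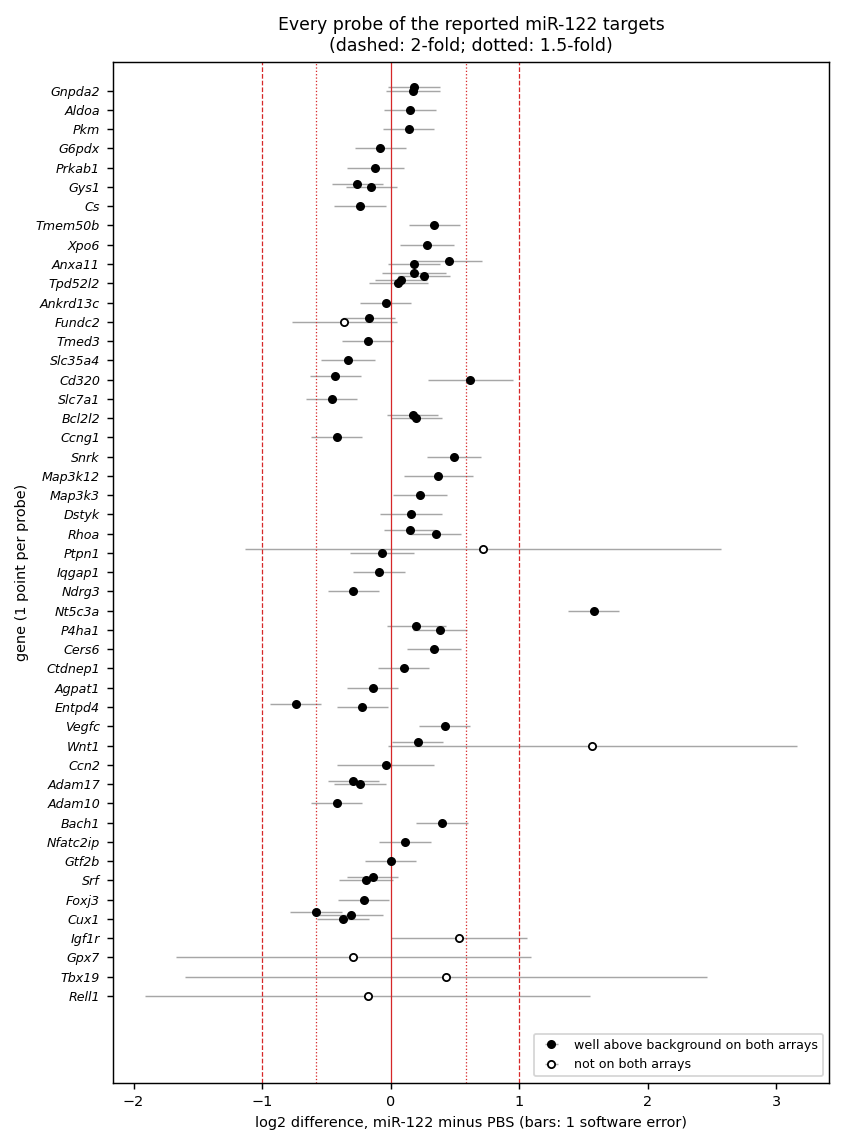
Log2 difference, miR-122 minus PBS (horizontal axis), of each of the 66 probes of the 48 genes (vertical axis), with bars of 1 software error; filled points were well above background on both arrays, dashed lines mark 2-fold and dotted lines 1.5-fold. Nt5c3a alone is past 2-fold among the filled points, and the open points carry the widest bars.

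Among the genes for enzymes of lipid, nucleotide, collagen and redox metabolism, 4 of 6 measured genes had positive and 2 negative differences. The negative share was 33.3%, beside 39.7% of all named genes. Nt5c3a encodes a cytosolic nucleotidase that breaks down pyrimidine nucleotides, and the gene is known to be inducible by interferon in human cells. It had 1 probe, with an unscaled signal of 486 for PBS and 1203 for miR-122. Its level was 0.21 with PBS and 1.79 with miR-122, a difference of 1.58 or 3-fold higher, between 1.41 and 1.59 under the alternatives. This difference is larger than that of 98.4% of all genes. On the same arrays Ifnb1, the gene for interferon beta, was at -3.81 and 3.21, and the part of interferon in the level of Nt5c3a was not tested.

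The promoter of Nt5c3a is shown because it was the gene past 2-fold. It is the RefSeq sequence of assembly GRCm38.p6 at chr6:56901837-56902136, minus strand, from 250 bases before to 50 bases after the annotated start. Capitals mark a match to an NF-kB form of motif, GGGA, then 4 bases of any kind, then CC, which begins 55 bases before the start and lies on the strand shown.
Nt5c3a promoter: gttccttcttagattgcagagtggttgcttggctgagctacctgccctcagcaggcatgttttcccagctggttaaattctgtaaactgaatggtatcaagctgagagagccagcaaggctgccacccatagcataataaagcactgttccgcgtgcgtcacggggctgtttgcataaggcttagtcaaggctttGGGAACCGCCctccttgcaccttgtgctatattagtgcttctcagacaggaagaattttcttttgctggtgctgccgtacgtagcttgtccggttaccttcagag
The other motif searched was the core of the interferon-stimulated response element, GAAA, then 2 bases of any kind, then GAAA. It does not occur in these 300 bases on either strand. Promoters in the table were matched for 45 of the 48 genes, 55 promoters in all. The NF-kB form, on either strand, was in 10 of the 55, or 18.2%, against 20.7% of all 32851 promoters of that length. The interferon element core was in 1, that of Xpo6, or 1.82%, against 3.44% of all. A match is a description of letters only.

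The other enzymes of this group stayed within 1.5-fold by their summarising probes. Cers6, a ceramide synthase gene, had levels of -0.93 and -0.59. Ctdnep1, which encodes a nuclear envelope phosphatase acting on the lipid regulator lipin, differed by 0.10, and Agpat1, an acyltransferase gene of phospholipid synthesis, by -0.14. Entpd4, a Golgi nucleotidase gene, had 2 probes that were unlike in size. The brighter had levels of 3.83 and 3.60, a difference of -0.22, and the other had 2.60 and 1.86, a difference of -0.74 or 1.67-fold lower. Averaged over both probes, Entpd4 differed by -0.48. Gpx7, a peroxidase gene of the endoplasmic reticulum, was not well above background on either array.

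The remaining genes of fuel and sugar metabolism differed by small amounts, and the 7 genes of this group ranged from -0.24 to 0.18 with a median of -0.08. G6pdx, the first enzyme of the pentose phosphate pathway, had levels of 4.57 and 4.49. Prkab1, a regulatory subunit of AMP-activated kinase, had -2.21 and -2.34, and Gnpda2, a glucosamine-6-phosphate deaminase gene, had 0.31 and 0.49. The 2 probes of Gnpda2 differed by 0.17 and 0.18.

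Genes for transport and membrane trafficking had 6 negative and 4 positive differences among 10 measured genes, with a median of -0.11. The negative share was 60%, beside 39.7% of all named genes, in a group of few genes. Cd320 encodes the receptor for transcobalamin-bound vitamin B12, and it was the gene of the 48 whose probes, where well above background on both arrays, went in opposite directions. Its brighter probe had unscaled signals of 1591 with PBS and 973 with miR-122, a difference of -0.43. The other probe had unscaled signals of 16.1 and 20.4, near background, and a difference of 0.62. The mean over the 2 probes was 0.09, so the direction for Cd320 rests on the choice of probe. Slc35a4, a gene of the nucleotide sugar transporter family, was lower, and Xpo6, which encodes the exporter of actin from the nucleus, was higher. Tmem50b, a membrane protein gene, had levels of 2.27 and 2.61. Tmed3, a cargo receptor gene of the early secretory pathway, had 4.09 and 3.91, and Fundc2 3.01 and 2.84. A dim probe of Fundc2 was detected with PBS alone. Anxa11, an annexin gene, had 2 probes with differences of 0.18 and 0.45, and the 4 probes of Tpd52l2 ranged from 0.06 to 0.26. Ankrd13c differed by -0.04, and Rell1 was not well above background on either array.

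Xpo6, Slc35a4 and the kinase gene Map3k3 each had a probe printed in 10 spots, which gives a direct measure of precision within an array. The 10 spots of Slc35a4 ranged from -1.88 to -1.76 with a median of -1.82 on the PBS array. On the miR-122 array they ranged from -2.24 to -2.10 with a median of -2.15. The spots of the arrays did not overlap, and the difference of the means was -0.33. For Map3k3, a kinase gene of the MAP kinase cascade, the spots ranged from -1.22 to -0.93 with PBS, median -1.04, and from -0.89 to -0.76 with miR-122, median -0.82. They did not overlap either, and the difference was 0.23. For Xpo6 the 10 spots on the PBS array ranged from -2.49 to -2.35, median -2.43, and the 9 unflagged spots on the miR-122 array from -2.26 to -2.02, median -2.14, again with no overlap and a difference of 0.28. The standard deviation over the spots of these probes was 0.04 to 0.08 on a single array. The software error was 0.21 for each, but it belongs to the difference between the arrays, so the values are unlike measures. Spots of 1 array share 1 RNA sample, so their number adds no replicate of a culture. The gaps also depend on the scaling. Unscaled signals were 204 with PBS and 198 with miR-122 for Map3k3, 78.5 and 79.0 for Xpo6, and 119 and 78.2 for Slc35a4. Under median scaling the differences were 0.06 for Map3k3, 0.11 for Xpo6 and -0.51 for Slc35a4. For Map3k3 and Xpo6 this shift is larger than the gap between the spots, from -0.93 to -0.89 and from -2.35 to -2.26. Their spots therefore overlap under median scaling, while the gap of Slc35a4 widens.

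**Figure D4:**
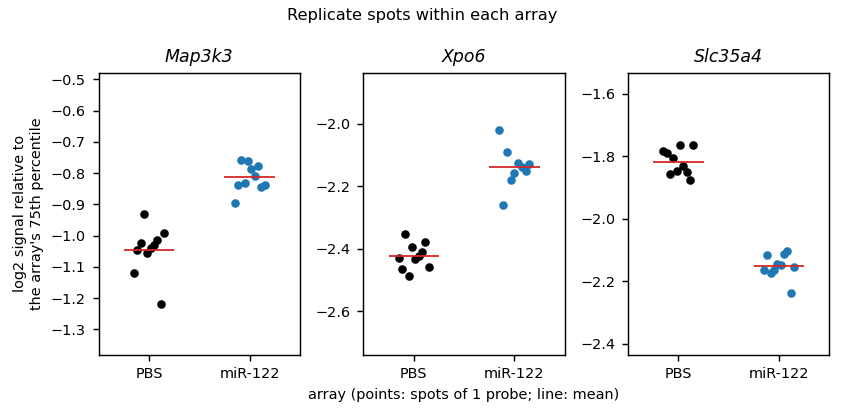
Level of each spot, as log2 signal relative to the 75th percentile of the array (vertical axes, different ranges of equal height), for the probes of Map3k3, Xpo6 and Slc35a4 printed in 10 spots, on the PBS array (black) and the miR-122 array (blue), with the mean as a red line. As scaled here, the spots of the arrays do not overlap for any of the 3 genes, 2 of them higher and Slc35a4 lower on the miR-122 array.

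Of the genes for kinases, phosphatases and cytoskeletal signalling, 5 of 8 had positive differences, with a median of 0.16. Negative differences made up 37.5%, close to the 39.7% of all named genes. Snrk, which encodes a kinase related to AMP-activated kinase, had unscaled signals of 150 with PBS and 174 with miR-122. Its level was -1.49 with PBS and the difference was 0.49, or 1.41-fold higher, the largest positive difference among the 44 genes after Nt5c3a. Map3k12 had levels of -4.06 and -3.69, near background, with a difference of 0.37 that was 0.14 with the authors' values. Dstyk had -3.45 and -3.28, and the GTPase gene Rhoa had 2 probes with differences of 0.15 and 0.35. Iqgap1, a scaffold gene of the actin cytoskeleton, differed by -0.09, and Ptpn1, the phosphatase PTP1B, by -0.07. A second probe of Ptpn1 was not well above background on either array.

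Of the genes for surface proteases, receptors and secreted signals, 5 of 6 were measured, with 3 negative and 2 positive differences. That is 60% negative, beside 39.7% of all named genes, in a group of few genes. Vegfc, a growth factor gene for lymphatic vessels, had unscaled signals of 2539 with PBS and 2813 with miR-122. Its levels were 2.59 and 3.02, 1.34-fold higher and, as scaled here, more than 2 times the software error. Wnt1, a secreted Wnt ligand gene, was measured by 1 of its 2 probes, with levels of 0.93 and 1.14. The other Wnt1 probe had unscaled signals of 2.5 and 6.2, not well above background on either array, so the 2 probes of Wnt1 do not give the same picture of whether the gene is detected. Ccn2, a matricellular protein gene, was near background at -4.61 and -4.65, and its difference of -0.04 ranged from -0.34 to 0.14 over the alternatives.

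Among the transcription genes, 4 of 6 had negative differences, or 66.7%, beside 39.7% of all named genes, in a group of few genes. Cux1, which encodes a homeodomain repressor, had the largest negative difference of the 44 genes and 3 probes, matched to 2 different RefSeq transcripts. Its brightest probe had unscaled signals of 912 with PBS and 505 with miR-122. The levels were 1.11 and 0.54, 1.49-fold lower. The other two probes differed by -0.37 and -0.31, so all 3 were lower on the miR-122 array, and the mean over the probes was -0.42. Among all genes, 6.18% had a more negative difference than Cux1. Bach1, a repressor of heme oxygenase and a reported miR-122 target in human liver cells, went the other way, with levels of -0.18 and 0.22, 1.32-fold higher. Srf, the serum response factor, had 2 probes with differences of -0.14 and -0.19, Foxj3 had levels of 2.66 and 2.45, Nfatc2ip differed by 0.11, and Gtf2b, the basal factor TFIIB, had 2.57 on both arrays. The T-box gene Tbx19 was not well above background on either array.

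Set against 2 times the software error, 8 of the 44 genes differed by more. Higher by more were 3, Nt5c3a, Snrk and Vegfc, or 6.82%, where 15.5% of all genes were higher by more than 2 times their error. Lower by more were 5, Slc7a1, Ccng1, Adam10, Cd320 and Cux1, or 11.4%, where 9.79% of all genes were lower. The share of lower genes is close to that of all genes. These counts hold for the scaling as reported, and the software error leaves out the choice of scaling. Under median scaling Snrk differed by 0.32 and Vegfc by 0.25, less than 2 times their error. Ndrg3 and Adam17, at -0.47 each, and Slc35a4, at -0.51, then differed by more than 2 times theirs, and Cs, at -0.41, lay close to that bound. The share of all genes past 2 times their error was not counted under median scaling, so these changes do not set the targets apart.

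The direction of a difference of this size depends on how the arrays are scaled. With median scaling, which moves every difference by the same amount, 31 of the 44 genes were negative, or 70.5%, but so were 59.7% of all genes. Under that scaling Slc7a1, Ccng1, Adam10, Cd320 and Cux1 were at least 1.5-fold lower, 5 genes, with differences from -0.75 to -0.59, beside 10.6% of all genes. With loess, which sets the median of all genes to 0.00, 25 of the 44 genes were negative, or 56.8%, beside 49.7% of all genes, and the median of the targets was -0.03. Of the 44 genes, 20 were negative under all 9 settings, among them Slc7a1, Ccng1, Gys1, Ndrg3, Cs, Adam10, Adam17 and Cux1. A further 13 were positive under all 9, among them Nt5c3a, Snrk, Vegfc, Bach1 and P4ha1, and the sign of the other 11, Aldoa and Pkm included, turned. The share of all genes that kept 1 sign was not counted, so these counts do not set the targets apart. The settings also overlap. For the 44 genes, the authors' values gave the same differences as quantile normalization, and leaving out the filter on dim probes repeated the reported ones.

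**Figure D5:**
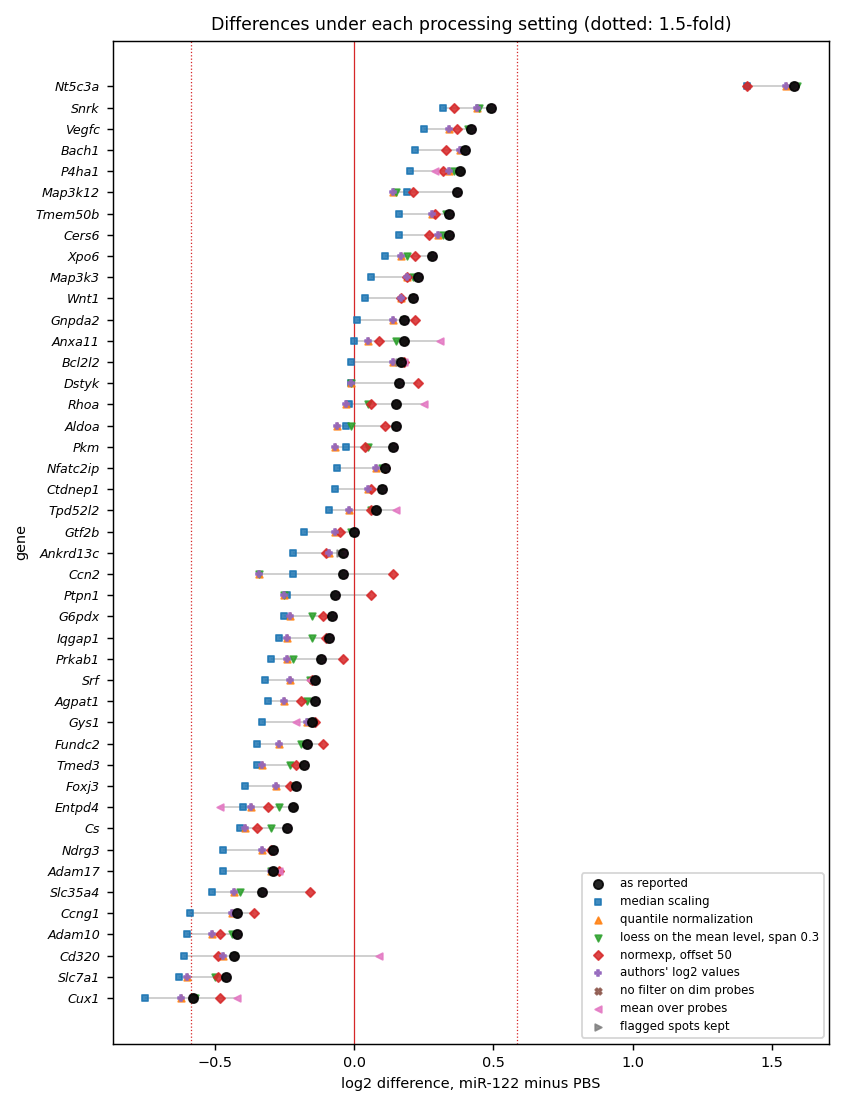
Log2 difference, miR-122 minus PBS (horizontal axis), of the 44 genes (vertical axis) as reported (black circles) and under the 8 alternatives; each grey line spans the range and dotted lines mark 1.5-fold. Nt5c3a lies between 1.41 and 1.59 under all of them, and Cd320 spans the widest range, from -0.61 to 0.09.

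The genes of the machinery through which a microRNA silences its targets were taken as a list of 25, from processing to decay of the messenger RNA. All 25 were well above background on both arrays, with 12 positive and 13 negative differences and a median of -0.01. The negative share was 52%, beside 39.7% of all named genes. Of the 25, 2 genes were past 2-fold upward and 0 downward, beside 4.57% and 1.78% of all genes, and counts this small say nothing particular to the machinery. The helicase gene Mov10 had levels of 1.76 and 3.94, 4.54-fold higher, and the decapping enzyme gene Dcp2 had -1.32 and -0.23, 2.13-fold higher. The exonuclease gene Xrn1 was 1.89-fold higher. The genes of the 4 Argonaute proteins, which hold the microRNA, were each lower by a small amount. Ago1 differed by -0.24, Ago2 by -0.33, Ago3 by -0.21 and Ago4 by -0.10. Each of these is less than 2 times 0.20, the lowest software error over all named genes. Dicer1, which cuts the precursor, differed by 0.07. Ago3 and Dicer1 were near background, with PBS levels of -3.72 and -3.62. The reference genes Actb and Gapdh had differences of 0.21 and 0.18 and Hprt one of -0.25.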

How the data were processed

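Gene expression was read from 2 one-colour Agilent arrays, 1 for PBS and 1 for miR-122. Per the file headers, version 11.0.1.1 of Agilent Feature Extraction made the spot intensities in the deposited scanner files: processed intensities with their software error, background-subtracted and not normalized between arrays, and median spot and background intensities. The array design names build mm9, per the file headers. The deposited table of processed values by the authors is on a log2 scale, and how they normalized it is not stated in the sources used here. Its columns share a median of 5.16. By these values 528 named genes were at least 2-fold higher and 354 lower, the same counts as with quantile normalization. The share of negative differences, 53.6%, was also the same with both. The correlation across probes with scanner log2 signals was 0.997 for the same array and 0.985 for the other, so each column goes with the scanner signals of its own sample. This does not settle the conflict between the labels.

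Flagged spots (145 and 196 non-control spots) were left out, spots of a probe were averaged as log2, and each array's 75th percentile of non-control probes was subtracted. Unversioned accessions were looked up in RefSeq (GRCm38.p6), and 27232 of 39427 probes matched. Each gene was summarised by the brightest of its probes that were well above background on 1 or 2 arrays. Different probes of 1 gene gave differences with a pooled standard deviation of 0.30 over all genes and 0.24 over the members. Probes printed in 10 spots had a median standard deviation of 0.05 with PBS and 0.06 with miR-122 over 282 probes. No test was possible with 1 array per group, and the precision is limited by how few arrays there are.

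The members, lists and alternatives were chosen with earlier results of these data known. Genes with full values were those past 1.5-fold, the 12 marks of miR-122 activity, those with probes in opposite directions and those not on both arrays; further values and the comparison with the software error were chosen after the values were seen. Counting past a fold was checked on simulated data first. Tools were Python 3.11.15, numpy 2.4.6, pandas 2.3.3, R 4.3.3 and limma 3.58.1.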

Additional observations from a re-analysis of the deposited data

How the results depend on the processing

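The alternatives were median scaling, quantile normalization, loess (span 0.3), normexp on the median spot signals (offset 50), the authors' log2 values, no filter on dim probes, the mean over probes, and flagged spots kept. The count of genes at least 2-fold higher was 1 and at least 2-fold lower 0 under all 8. The count at least 1.5-fold lower was 0 as reported and 5 with median scaling. It was 2, Slc7a1 and Cux1, with both quantile normalization and the authors' values, where 7.96% and 7.97% of all genes were at least 1.5-fold lower. Quantile normalization and the authors' values gave the same difference for each measured target, so they are not separate checks. The median difference of -0.02 turned to 0.05 with normexp and to 0.05 with the mean over probes, and was lowest, at -0.20, with median scaling. Of 352 single gene values under the alternatives, 2 moved by more than the pooled spread between probes of a gene, Ccn2 to -0.34 with loess and Cd320 to 0.09 with the mean over probes. The cause of these shifts was not tested, except that median scaling moves all differences by one amount and the mean over probes brings in dimmer probes. Without the filter on dim probes all 48 genes had a value, 25 of them negative, or 52.1%, beside 35.4% of all genes. Over all genes, 1357 were at least 2-fold higher and 451 lower without the filter, and 388 and 143 with normexp, against 687 and 268. Median scaling gave 471 and 456, and quantile normalization 528 and 354. No paired analysis was possible because each group holds 1 array. Leaving out an array leaves no comparison. Signal over background limits the differences of Ccn2, Map3k12, Dstyk and Ptpn1, whose levels were near background.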
